A study of Mus with 6 samples.

Results

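The AP-1 genes described here are the 4 Fos genes (Fos, Fosb, Fosl1 and Fosl2), the 3 Jun genes (Jun, Junb and Jund) and Atf3, 8 of the 55421 genes in the count files, chosen as the Fos, Jun and Atf3 genes of the family and matched by their Ensembl identifiers, with earlier results of these data known. All 8 passed the filter on low counts that left 16810 genes for testing. They were measured by RNAseq in lens epithelial cells (LECs) of wildtype C57BL/6 mice, to which the labels give an age of 2 months and the study's methods a higher one. The fiber cell mass was taken out of the lens, a model of cataract surgery, and the capsule with its attached LECs was collected at once (0 h PCS, post cataract surgery) or 6 h later (6 h PCS), with no other treatment in either group. Each time point had 3 libraries, each from a pool of 5 capsules. Per the labels, a mouse had one eye operated first and the other 6 h later, just before both capsules were taken, so the 0 h capsules come from mice already wounded in the fellow eye. Pools of both time points can therefore hold capsules of the same mice, and which ones do is not given.

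AP-1 is a family of dimeric transcription factors built from basic leucine zipper (bZIP) proteins. Jun proteins pair with each other or with Fos proteins, whereas Fos proteins need a Jun partner to bind DNA, and ATF3 pairs with Jun proteins and with itself. Most of these genes are immediate early genes, which MAP kinase signaling switches on within minutes of a wound or a growth factor, without new protein synthesis, and whose mRNAs decay fast. The comparison asks how the mRNA of each family member differs between LECs 6 h after the injury and LECs taken at its start.

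All 8 genes were higher at 6 h PCS, and in each of them every 6 h library exceeded every 0 h library. This held for 15.3% of all genes tested. Of the 8 genes, 6 were upregulated DEGs, meaning a Benjamini-Hochberg adjusted p of at most 0.05 over all genes tested and a fold change above 2, and the 2 others were Fos and Atf3. Among all genes tested, 4.53% were upregulated DEGs and 0.821% downregulated DEGs, 5.35% in all. The log2 fold changes of the 8 genes ran from 1.13 to 7.03 with a median of 2.93, while the median over all genes tested was close to 0. Together the 8 genes took 0.0645% to 0.133% of the gene counts of a 0 h library and 0.472% to 0.793% of those of a 6 h library. In bulk libraries, more cells that express a gene and more mRNA per cell cannot be told apart.

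**Figure D1:**
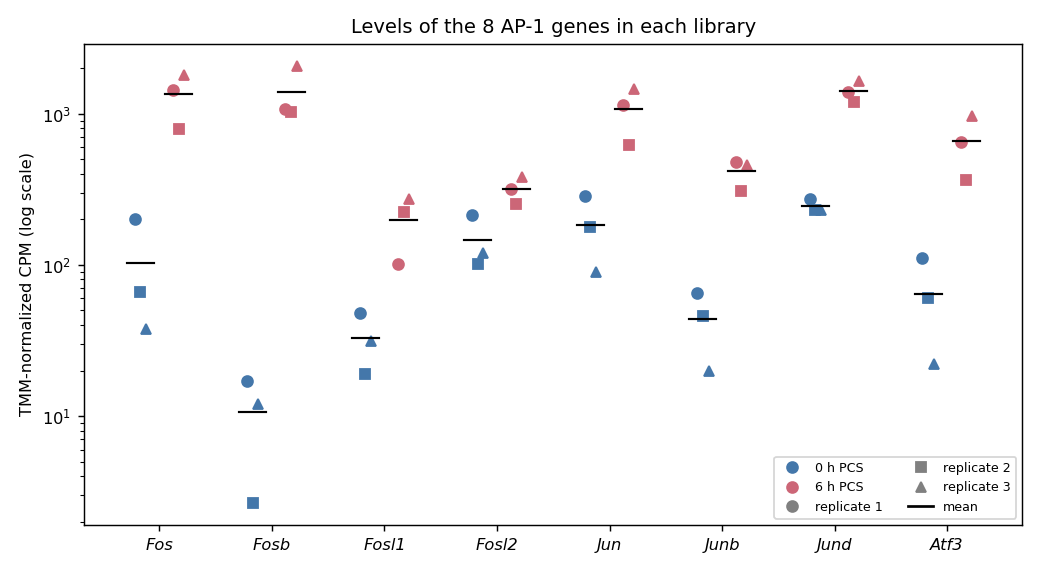
Level of each AP-1 gene in each of the 6 libraries, as TMM-normalized CPM on a log axis, with the replicate as symbol and the mean of each time point as a line. In every gene the libraries at 6 h PCS lie above those at 0 h PCS, the gap is narrowest for Fosl2, and at 0 h PCS replicate 1 is the highest library for all 8 genes.

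The libraries held 18039974 to 24701039 counts on genes. The factors of the TMM normalization, which corrects for differences in composition, were 1.09 to 1.15 in the 0 h libraries. In the 6 h libraries they were 0.827 to 0.990, without overlap. Levels are given in CPM, counts per 1000000 after that normalization. The levels of different AP-1 genes are compared as FPKM. This divides the count by the library's total gene count, without the TMM factor, and by exon length. A change in mean FPKM therefore differs from the fold change of the test. Of the lens epithelial markers, 8 of 12 could be named and tested, and their summed level was 1739 to 2113 CPM in the 0 h and 1649 to 2028 CPM in the 6 h libraries. Within that sum the genes went both ways: Epha2 was an upregulated DEG (log2 fold change 1.21, adjusted p = 0.0134 in edgeR) and Pdpn passed the adjusted p limit upward (0.90, 0.0247), while Prox1 (−0.75, 0.0119), Sox2 (−0.70, 0.0151) and Mab21l1 (−0.53, 0.0316) passed it downward, all 4 below the fold limit. Of the lens fiber markers, Crygb was at 104, 113 and 104 CPM in the 0 h libraries and at 8.32, 7.87 and 253 CPM in the 6 h libraries, so that 6 h replicate 3 also stood apart in this gene, and its part in the AP-1 levels was not tested. Pigment cell markers (Tyr, Tyrp1, Dct and Pmel, summed) were at 209, 63.8 and 51.4 CPM in 0 h replicates 1, 2 and 3 and at 77.4, 456 and 1965 CPM in the 6 h replicates. None of these 4 genes was a DEG. Of 7 leukocyte markers tested, 2 (Cd68 and Cd14) were upregulated DEGs, and the sums, 14.8 to 24.0 CPM at 0 h PCS and 23.4 to 52.0 CPM at 6 h PCS, overlapped. All 5 red cell markers (hemoglobin genes, which include near-identical copies, and Alas2) were upregulated DEGs with sums of 7.94 to 19.5 CPM and 73.5 to 133 CPM, although Hba-a1, Hba-a2 and Hbb-bt lost the call in 1 or more of the fits that left out a library. None of the 4 endothelial and 3 corneal epithelial markers tested was a DEG. The summed levels of the endothelial markers were 4.10 to 26.3 and 20.0 to 36.9 CPM, and those of the corneal markers were 348 to 495 and 318 to 451 CPM. Within the corneal list Krt12, the keratin that defines corneal epithelium, had 163, 12 and 34 counts in the 0 h and 835, 1463 and 734 counts in the 6 h libraries (adjusted p = 0.0792 in edgeR). Krt5 was at 3.44 ± 3.82 and 31.5 ± 6.71 CPM and Aldh3a1, which made up most of the sum, at 436 ± 77.3 and 279 ± 60.1 CPM (SD, n = 3). Krt12 and Krt5 were thus higher in every 6 h library than in any 0 h library, as the AP-1 genes were, Aldh3a1 had the lower mean at 6 h PCS, and the part of corneal cells in the AP-1 levels was not tested. Of the endothelial markers, Pecam1 was at 1.16, 0.692 and 0.518 CPM in the 0 h libraries and at 2.89, 1.75 and 4.76 CPM in the 6 h libraries (adjusted p = 0.0644 in edgeR). Cdh5 was at 0.387, 0.182 and 0.0863 CPM and at 0.940, 1.03 and 4.76 CPM (adjusted p = 0.0529 in edgeR). Both were thus also higher in every 6 h library than in any 0 h library, both were highest in 6 h replicate 3, Kdr and Tek overlapped, and the part of endothelial cells was not tested.

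The pigment markers were highest within their time points in 0 h replicate 1 and 6 h replicate 3, the same libraries in which most AP-1 genes were highest. In 6 h replicate 1 the pigment sum was below that of 0 h replicate 1, and all 8 AP-1 genes were above every library at 0 h PCS. The part of pigment cell RNA in the AP-1 levels was not tested.

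Jund encodes the Jun protein that most resting cells hold at a steady level. The gene (ENSMUSG00000071076) has no intron and occupies chromosome 8 bases 70697739 to 70700616 (GRCm38, as for all positions given). It was at 273, 231 and 231 CPM in the 0 h libraries and 1379, 1185 and 1655 CPM in the 6 h libraries. It varied less between replicates than any other member at both time points, with a coefficient of variation of 9.87% at 0 h PCS and 16.8% at 6 h PCS. Its log2 fold change was 2.52 (standard error, SE, 0.170, adjusted p = 9.21e-05, edgeR quasi-likelihood test), which ranked 8 of 16810 genes by p but 374 by fold change. Jund was a DEG whichever library was left out and under the 10 other alternatives tried.

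Jun, which encodes the founding and strongly activating member of the family, lies on chromosome 4 from 95049036 to 95052222 (ENSMUSG00000052684). It was at 284, 179 and 89.7 CPM at 0 h PCS and at 1132, 617 and 1452 CPM at 6 h PCS. Its log2 fold change, 2.53 (SE 0.524, adjusted p = 0.0432, edgeR quasi-likelihood test), was close to that of Jund, but less precise. Jun lost the call when 0 h replicate 2, or 6 h replicate 1 or 3, was left out (adjusted p up to 0.148 in edgeR), with log2 fold changes of 2.20 to 2.98 over the 6 fits. It also lost it with no low-count filter (adjusted p = 0.114) and in the test against a fold change of 2 (adjusted p = 0.25). A fit that blocked on the replicate number did not call Jun either (adjusted p = 0.117 in edgeR).

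Junb encodes a Jun protein that can oppose Jun at shared sites (ENSMUSG00000052837, chromosome 8, 84976909 to 84978748). Its 0 h libraries held 65.3, 45.7 and 19.8 CPM and its 6 h libraries 482, 308 and 459 CPM. The lowest library at 6 h PCS was 4.72 times the highest at 0 h PCS, so the groups were far apart. At 6 h PCS it was higher by 3.25 on the log2 scale (SE 0.463, adjusted p = 0.0105, edgeR quasi-likelihood test), and Junb was a DEG under all 10 alternatives other than leaving out a library. Without 6 h replicate 1 or 6 h replicate 3 its adjusted p was 0.0643 or 0.0601 in edgeR.

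Fosb, which encodes a Fos protein and by splicing a shorter stable form of it, lies on chromosome 7 from 19302696 to 19310118 (ENSMUSG00000003545). Its 0 h libraries held 17.2, 2.66 and 12.1 CPM from 399, 73 and 280 counts. At 6 h PCS it reached 1065, 1029.5 and 2069 CPM. The lowest of these was 60.0 times the highest library at 0 h PCS. The increase of 7.03 on the log2 scale (SE 0.909, adjusted p = 0.0143, edgeR quasi-likelihood test) ranked 18 of the 16810 genes. The call was lost without 0 h replicate 3 (adjusted p = 0.055) and without 6 h replicate 1 (adjusted p = 0.0508). The counts are per gene and do not separate the splice forms.

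Fos, the prototype immediate early gene (ENSMUSG00000021250, chromosome 12, 85473890 to 85477274), had the largest coefficient of variation of the 8 genes among the 0 h libraries, 86.0%. It was at 202, 66.6 and 37.7 CPM at 0 h PCS and at 1442, 788 and 1801 CPM at 6 h PCS. The 6 h libraries were thus at least 3.90 times every 0 h library. The log2 fold change was 3.72 (SE 0.798, adjusted p = 0.0599, edgeR quasi-likelihood test) and Fos was not called. Without 0 h replicate 1 it was 4.68 (adjusted p = 0.00336 in edgeR) and Fos was called, but it was not called without any one of the other 5 libraries. DESeq2 (adjusted p = 6.37e-05), the exact test of edgeR (6.94e-05), edgeR without robust estimation (0.00751) and edgeR on genes with at least 10 counts in every library (0.049) called it.

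Fosl1 encodes Fra-1, a Fos protein that lacks the strong activation domain of Fos and is known for its part in cell migration (ENSMUSG00000024912, chromosome 19, 5447698 to 5455938). Its levels were 48.3, 18.9 and 31.2 CPM at 0 h PCS and 101, 225 and 272 CPM at 6 h PCS. Unlike Jun, Junb and Atf3, it had its lowest 6 h value in replicate 1. Fosl1 rose by 2.60 on the log2 scale (SE 0.507, adjusted p = 0.0363, edgeR quasi-likelihood test). It was not called when 0 h replicate 3, or 6 h replicate 2 or 3, was left out (adjusted p 0.095 to 0.111 in edgeR). Nor was it called with no low-count filter (0.0976) or in the test against a fold change of 2 (0.209). A fit that blocked on the replicate number did not call Fosl1 either (adjusted p = 0.17 in edgeR). The RefSeq gene overlaps Ccdc85b, and read pairs that match both are left out of both counts in union mode unless the strand setting tells the genes apart.

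Fosl2, which encodes the related Fra-2, showed the smallest change (ENSMUSG00000029135, chromosome 5, 32136472 to 32157840). It was at 215, 102 and 120.0 CPM at 0 h PCS and at 319, 253 and 382 CPM at 6 h PCS. The lowest library at 6 h PCS was only 1.18 times the highest at 0 h PCS. Its log2 fold change was 1.13 (SE 0.286, adjusted p = 0.0477, edgeR quasi-likelihood test). Of the 6 fits that left out a library, only the one without 0 h replicate 1 called Fosl2, and the lowest log2 fold change among them was 0.92. Scaled on library size alone, where the median of all genes tested moved to −0.32, its log2 fold change was 0.81 (adjusted p = 0.0562 in edgeR).

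Atf3, a stress gene whose product is best known as a repressor when it pairs with itself, lies on chromosome 1 from 191170296 to 191183333 (ENSMUSG00000026628). It was at 111, 60.4 and 22.2 CPM at 0 h PCS and at 646, 365 and 961 CPM at 6 h PCS. The groups were separated by a factor of 3.30 between the highest 0 h and the lowest 6 h library. For Atf3 the log2 fold change, 3.35 (SE 0.734, adjusted p = 0.0616, edgeR quasi-likelihood test), did not pass. Atf3 was called without 0 h replicate 1 (adjusted p = 0.0487) and without 0 h replicate 3 (0.0265), by DESeq2 (3.68e-05), by the exact test of edgeR (0.000118) and without robust estimation (0.00855).

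**Figure D2:**
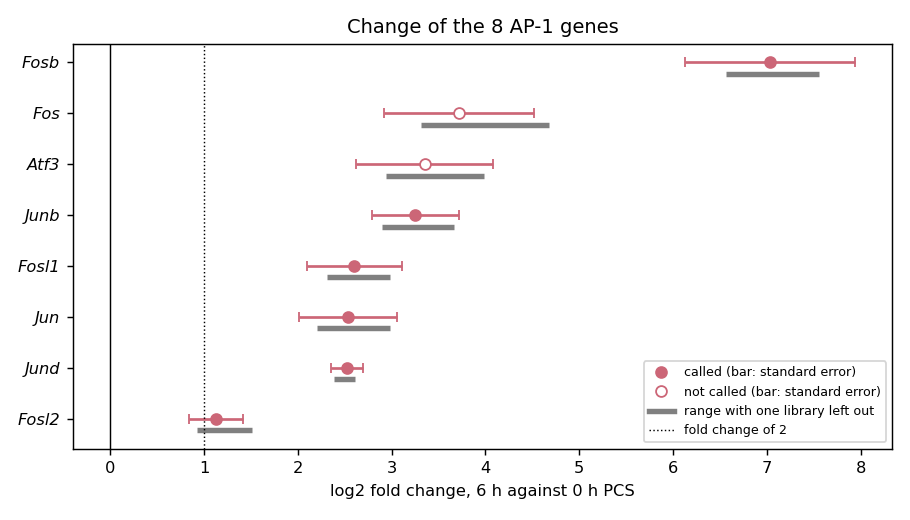
Log2 fold change of each AP-1 gene at 6 h against 0 h PCS with its standard error from edgeR, filled where the gene was a DEG, and below it in grey the range over the 6 fits with one library removed. Fosb stands at 7.03, Fosl2 at 1.13, and Jund at 2.52 with the shortest bar.

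With 0 h replicate 1 left out, all 8 genes were DEGs (2.90% of all genes tested were upregulated DEGs in that fit). With 6 h replicate 1 left out, only Fosl1 and Jund were (4.18% of all genes), and with 6 h replicate 3 left out, only Fosb and Jund (3.30%). Leaving out 0 h replicate 2 (3.81%), 0 h replicate 3 (3.48%) or 6 h replicate 2 (3.57%) left 4 of the 8 genes as DEGs each time, with Junb and Jund among them.

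With all libraries, DESeq2 (6.40% of all genes upregulated), the exact test of edgeR (5.96%) and edgeR without robust estimation (4.66%) called 8 of the 8 genes. Requiring at least 10 counts in every library (5.00%) left out Atf3 alone. The quasi-likelihood method of edgeR 4 (5.16%) and the size factors of DESeq2 (4.57%) called the same 6 genes as the main test. Library size scaling (3.40%) called 5. Under it 572 genes were upregulated and 627 downregulated DEGs, against 762 and 138 in the main test. No low-count filter (3.66%) called 4, and the test against a fold change of 2 (1.29%) called Fosb, Junb and Jund. A fit that blocked on the replicate number (888 of 16810 genes upregulated) called 4, namely Fosb, Fosl2, Junb and Jund. The direction did not change in any member under any of the alternatives tried, library size scaling included.

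Per exon length, Jund was the most abundant member at both time points, with 163.7 ± 13.1 FPKM at 0 h PCS and 751 ± 103 FPKM at 6 h PCS (SD, n = 3). At 0 h PCS it was followed by Jun (63.9 ± 32.5 FPKM), Fos (47.8 ± 40.3 FPKM), Atf3 (33.0 ± 22.1 FPKM), Junb (21.0 ± 10.6 FPKM), Fosl1 (17.9 ± 7.79 FPKM), Fosl2 (16.7 ± 6.64 FPKM) and Fosb (1.90 ± 1.29 FPKM). Only the steps from Jund to Jun and from Fosl2 to Fosb were larger than the SD of both neighbours. The 6 genes between Jund and Fosb thus formed a series in which no neighbours differed beyond their spread, although Jun, Fos, Atf3 and Junb kept their order in 3 of 3 libraries.

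At 6 h PCS the order was Jund, Fos (503 ± 170 FPKM), Jun (294 ± 104 FPKM), Atf3 (269 ± 113 FPKM), Fosb (198.1 ± 80.7 FPKM), Junb (159.9 ± 24.0 FPKM), Fosl1 (89.1 ± 42.0 FPKM) and Fosl2 (29.2 ± 4.67 FPKM). Fos had moved above Jun in 3 of 3 libraries, and Fosb had moved from the last place to the fifth. Jun and Atf3, Atf3 and Fosb, and Fosb and Junb differed by less than the larger SD of the pair. The place of Jund rests on its exon length: with the longer RefSeq span of this gene without introns, it was at 435 ± 59.5 FPKM at 6 h PCS, below Fos in 2 of 3 libraries, and at 94.8 ± 7.57 FPKM at 0 h PCS, where its libraries overlapped those of Jun.

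Summed over the 8 genes, the level was 509, 323 and 265 FPKM in the 0 h libraries and 2112, 1822 and 2947 FPKM in the 6 h libraries. The 4 Fos genes made up 28.8%, 16.7% and 19.7% of this sum at 0 h PCS and 33.9%, 34.5% and 37.8% at 6 h PCS, without overlap between the time points. The 3 Jun genes made up 60.2%, 73.7% and 75.8% at 0 h PCS and 54.4%, 56.3% and 49.0% at 6 h PCS, again without overlap. For both shares the exact two-sided permutation p was 0.10, the smallest that 3 libraries against 3 can give (0.20 after Benjamini-Hochberg adjustment over 6 shares). The share of Fosb rose from 0.524% ± 0.349 to 8.49% ± 1.64 (SD, n = 3) with the same exact permutation p of 0.10. The share of Jund, 47.5% ± 12.4 and 33.5% ± 4.61 (SD, n = 3), overlapped between the time points (exact permutation p = 0.20). These shares depend on the exon lengths: at 6 h PCS that of Jund was 22.1% with RefSeq spans and 21.4% without length correction, and at 0 h PCS that of the 4 Fos genes was 34.1% without it.

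**Figure D3:**
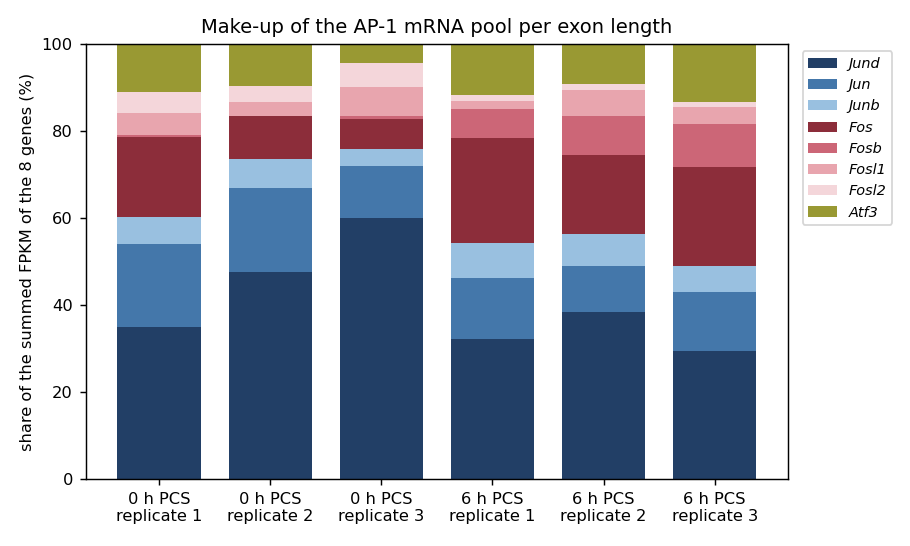
Share of each AP-1 gene in the summed FPKM of the 8 genes, as stacked bars for each of the 6 libraries. The Fos genes (red) take 16.7% to 28.8% of the sum at 0 h PCS and lie between 33.9% and 37.8% at 6 h PCS, while Jund (dark blue) is the largest single part in every library with the exon lengths used, but not with its RefSeq span, under which Fos is above it in 2 of 3 libraries at 6 h PCS.

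Ratios of FPKM within a library, which do not depend on its depth, were compared for 6 pairs of members. The ratio of Fos to Jun was 0.965, 0.504 and 0.570 in the 0 h libraries and 1.73, 1.73 and 1.68 in the 6 h libraries. It thus spread more between the 0 h libraries, with an SD of 0.50 on the log2 scale, than between the 6 h libraries, with an SD of 0.02. The ratio of Fosb to Fos was 0.0320, 0.0151 and 0.121 at 0 h PCS and 0.278, 0.492 and 0.433 at 6 h PCS. Atf3 stood at 0.367 to 0.576 of Jun at 0 h PCS and at 0.845 to 0.980 at 6 h PCS, and Fosl1 at 0.886 to 1.24 of Fosl2 and then at 1.5 to 4.22. Jun stood at 2.82 to 3.27 times Junb at 0 h PCS and at 1.45 to 2.29 times at 6 h PCS. These 5 ratios did not overlap between the time points (exact permutation p = 0.10 each, 0.12 adjusted over the 6 pairs). The ratio of Jund to Jun was 1.84 to 4.93 at 0 h PCS and lay between 2.18 and 3.67 at 6 h PCS (exact permutation p = 0.80), and the mean log2 ratio differed by −0.09 with SDs of 0.73 and 0.41.

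The members also varied together between replicates. In 0 h replicate 1 all 8 genes had their highest level of the 0 h libraries, on average 0.80 above the mean of the time point on the log2 CPM scale. In 6 h replicate 3 the same was true of 7 genes, the exception being Junb, with a mean deviation of 0.45, and in 6 h replicate 2 the lowest 6 h level was found for 7 genes, the exception being Fosl1. The median deviation of all genes tested was within 0.03 of 0 in each library. The median coefficient of variation of the 8 genes was 52.6% at 0 h PCS and 38.9% at 6 h PCS, against 18.9% and 24.7% for all genes tested.

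**Figure D4:**
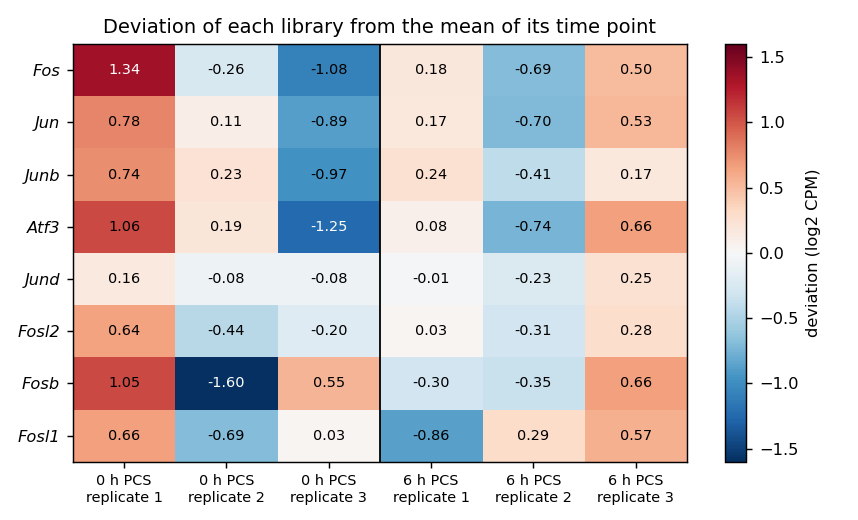
Deviation of the log2 CPM of each AP-1 gene in each library from the mean of its time point, in red above and in blue below the mean. The column of 0 h replicate 1 is above the mean for all 8 genes, Jund stays close to 0 throughout, and Fosb and Fosl1 depart from Fos, Jun, Junb and Atf3 in 0 h replicates 2 and 3 and in 6 h replicate 1.

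Across the 6 libraries, the deviations of Fos, Jun, Junb and Atf3 followed each other with Pearson correlations of 0.92 to 0.99 in the 6 pairs. Those of Fosb correlated with these 4 genes at 0.02 to 0.42 and those of Fosl1 at 0.04 to 0.34, while Fosb and Fosl1 correlated with each other at 0.76. Fosl2 correlated with the other 7 genes at 0.59 to 0.88, with Fos at 0.88 and with Fosb at 0.80, and Jund with the other 7 at 0.43 to 0.83. The grouping of the 4 genes was read from these same correlations. These values describe 6 points that share their libraries, with their depth and their pigment cell RNA. The part of either in the correlations was not tested.

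Among the other genes tested, those whose log2 CPM over the 6 libraries was most like the mean profile of the 8 genes were an unnamed gene (ENSMUSG00000097831), Gadd45a, Ghr, Hcn4 and Iqcn, with Pearson correlations of 0.995 to 0.998 over 6 libraries. All 8 genes were higher in every 6 h library, so a gene chosen for likeness to their profile tends to be higher at 6 h PCS too. Gadd45a, which encodes a stress and growth arrest protein, was an upregulated DEG (log2 fold change 2.09, SE 0.240, adjusted p = 0.00097, edgeR). Hcn4, which encodes a pacemaker ion channel, rose from 2.76 to 48.2 CPM (log2 fold change 4.13, SE 0.641, adjusted p = 0.0158, edgeR) but lost the call without 0 h replicate 2 or 6 h replicate 1. By deviations from the means of the time points alone, the 5 genes closest to the mean deviation of the 8 genes had correlations of 0.987 to 0.999, had no symbol in the tables used here, and none was a DEG.

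Other bZIP proteins share dimers or sites with AP-1. Of 33 such genes, 14 were named and tested. Upregulated DEGs numbered 9 and downregulated DEGs 0. Named genes held more DEGs than all genes tested: 11.6% of the tested genes with a name were upregulated DEGs, against 4.53% of all. Symbols came from the study's own differential expression results, and 741 of the 762 upregulated DEGs had one, against 6372 of the 16810 genes tested. Whether a listed gene could be named thus went with its change, which can raise the counts and medians of this and the other lists. The median log2 fold change of the 14 genes was 1.37. The largest increases were in Maff, a small Maf protein without an activation domain (29.3 ± 11.3 to 259 ± 57.5 CPM, SD, n = 3), in Cebpd and Cebpb, which encode C/EBP factors of the acute phase response (31.1 ± 8.42 to 256 ± 48.4 and 41.6 ± 5.43 to 142 ± 18.4 CPM, SD, n = 3), and in Nfil3 (27.6 ± 8.70 to 89.0 ± 10.1 CPM, SD, n = 3). Their adjusted p-values in edgeR were 0.000673, 0.000142, 0.000267 and 0.00181. Jdp2, which encodes a repressor that pairs with Jun, was higher by 0.53 on the log2 scale (SE 0.193, adjusted p = 0.131, edgeR) and was not called.

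**Figure D5:**
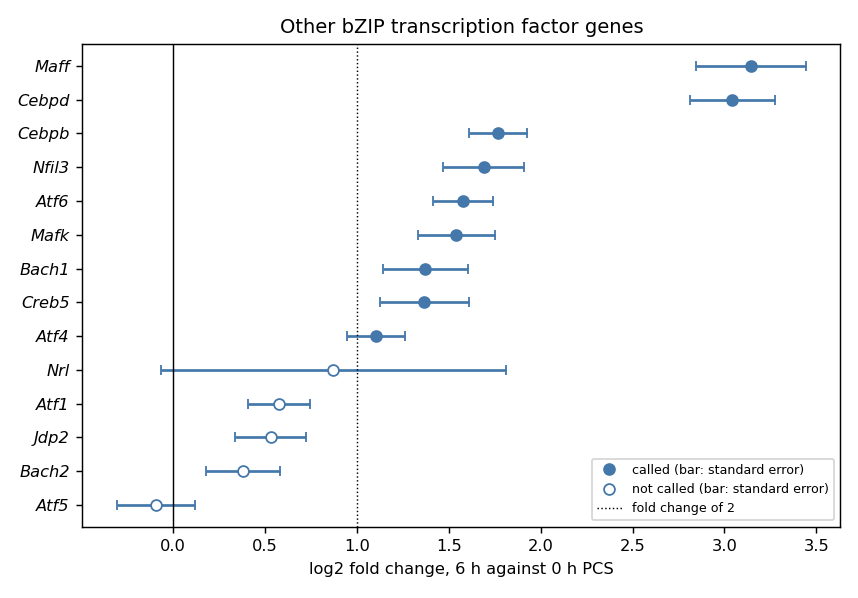
Log2 fold change at 6 h against 0 h PCS of the 14 other bZIP genes that could be named and tested, with the standard error from edgeR, filled where the gene was a DEG. Maff (3.14) and Cebpd (3.04) lead, and 5 genes, from Nrl to Atf5, were not called.

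Of 26 listed symbols for MAP kinases, their downstream kinases and the factors that act on the Fos and Jun promoters, 13 could be named and tested, and 2 were upregulated DEGs, beside 11.6% of all named genes tested. They were Srf, which encodes serum response factor, an activator of Fos transcription (16.1 ± 3.48 to 82.1 ± 16.6 CPM, SD, n = 3, log2 fold change 2.35, SE 0.207, adjusted p = 0.000267, edgeR), and Rps6ka3, which encodes the ERK-activated kinase RSK2 (32.1 ± 4.21 to 101 ± 17.3 CPM, SD, n = 3, log2 fold change 1.66, SE 0.173, adjusted p = 0.000531, edgeR). The median of the 13 genes was 0.37. The MAP kinase genes named here did not pass the fold limit, and Mapk14, which encodes p38 alpha, passed the adjusted p limit only (log2 fold change 0.75, SE 0.179, adjusted p = 0.0306, edgeR).

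Of 9 listed genes for turnover of AP-1 proteins or mRNAs, 5 could be named and tested. Of these 5 genes, 2 were upregulated DEGs, beside the 11.6% of named genes. Both encode proteins that promote decay of AU-rich mRNAs such as that of Fos. Zfp36 went from 43.7 ± 23.6 to 638 ± 150.4 CPM and Zfp36l1 from 9.77 ± 3.36 to 95.8 ± 16.8 CPM (SD, n = 3), with adjusted p-values of 0.00697 and 0.000214 in edgeR. Fbxw7, which encodes the substrate receptor of a ubiquitin ligase for Jun, differed by 0.58 on the log2 scale (SE 0.184, adjusted p = 0.0887, edgeR).

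Of 24 genes with textbook AP-1 sites in their control regions, 13 were tested, with a median log2 fold change of 2.25, and 6 were upregulated DEGs and 0 downregulated. As above, 11.6% of the named genes were upregulated DEGs. Without 0 h replicate 1, 2 or 3 the number was 3 each time. Ptgs2, which encodes the prostaglandin synthase Cox2, and Timp1, an inhibitor of metalloproteinases, kept the call whichever library was left out (log2 fold changes 5.31 and 2.38, SEs 0.487 and 0.318, adjusted p = 0.00167 and 0.00196, edgeR). Il6 was called (adjusted p = 0.0444 in edgeR) on 8, 0 and 3 counts at 0 h PCS and 117, 187 and 900 counts at 6 h PCS, and the call was lost without any one 0 h library or without 6 h replicate 1. Mmp10, which encodes the metalloproteinase stromelysin-2, had no count at 0 h PCS and 13, 17 and 16 counts at 6 h PCS, at least 7.07-fold higher when the 0 h libraries are set to 3 counts each. It was a DEG with all libraries (adjusted p = 0.0224 in edgeR) and in none of the fits that left out one.

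Heat shock genes are switched on by cell stress. Of 6 listed, 4 could be named and tested, and 2 were upregulated DEGs (11.6% of named genes). Dnajb1 was at 36.0 ± 6.81 and 258 ± 74.2 CPM and Hspa1a at 12.4 ± 4.08 and 44.0 ± 6.32 CPM (SD, n = 3), with adjusted p-values of 0.000212 and 0.00251 in edgeR. Hspa1a shares near-identical sequence with Hspa1b, so its count is uncertain. The summed level of the 4 genes was highest at 0 h PCS in replicate 1 and at 6 h PCS in replicate 3, as for most AP-1 genes, and the part of such stress in the AP-1 levels was not tested.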

How the data were processed

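The authors used Hisat2 for the alignment of paired reads to GRCm38 and HTSeq (union mode, Ensembl genes) for counting. The deposited values are raw counts per library, and the strand setting is not given in the sources used here. The 5 summary rows of each file were left out. The members and gene lists were chosen with earlier results of these data known.

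The main test was the quasi-likelihood F-test of edgeR (version 4.0.16, in its earlier form, under R version 4.3.3) after TMM normalization and filterByExpr, with robust estimation, as the study's methods state, without pairing of libraries. Standard errors are the absolute log2 fold change divided by the square root of F. FPKM used the total gene count and the study's exon lengths, and log2 CPM a prior count of 2. Symbols, from the supplementary tables read, named 6372 of 16810 tested genes. Positions are from RefSeq (GRCm38.p6). DESeq2 was version 1.42.0, and Python version 3.11.15 drew the figures.

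Genes named are the 8 members, the called genes of each list with at most 4 in each direction, the 5 genes closest in each measure of likeness, and listed markers. Jdp2, Mapk14, Fbxw7 and the neighbouring genes were chosen after their values were seen. Alternatives were DESeq2, the exact test, the edgeR 4 method, no robust estimation, 2 other scalings, 2 other filters, glmTreat, a replicate block, other lengths and leaving out each library. The p-values measure the spread between pools. The code was tested on simulated data.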

Additional observations from a re-analysis of the deposited data

How the results depend on the processing

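The number of the 8 AP-1 genes called, 6, was 3 in the test against a fold change of 2 (glmTreat), and the count over all genes, 900, was then 221, that of other bZIP genes 4 and that of AP-1 target genes 3. With one library left out, 2 to 8 AP-1 genes, 553 to 877 genes in all, 8 to 9 other bZIP genes and 3 to 5 target genes were called. The cause of these differences was not tested. Of the log2 fold changes of single members under the alternatives, 95 kept their side of the threshold, 10 passed it newly, 23 no longer passed, and none changed sign. The replicate numbers were not taken to pair the libraries, since no label states that they mark shared mice. Over all genes, the deviations of same-numbered libraries correlated at 0.004, 0.22 and 0.14, and those of differently numbered libraries at −0.19 to 0.023. The same-numbered pairs of replicates 2 and 3 thus had the highest correlations, and whether these pools share mice was not tested. With a replicate block 888 of 16810 genes were upregulated DEGs, against 762 in the main test, and 4 of the 8 AP-1 genes were called, Fosl1 (adjusted p = 0.17 in edgeR) and Jun (0.117) no longer. Without length correction the share of Jund was 32.1% at 0 h PCS and 21.4% at 6 h PCS and that of the 4 Fos genes 34.1% and 47.6%. With RefSeq spans for Jun, Junb and Jund, chosen after seeing the data, the share of Jund was 34.3% and 22.1%, and that of the Fos genes at 6 h PCS 40.3%. With one library left out, the share of Jund lay at 41.3% to 53.7% and 30.9% to 35.4%, and that of the Fos genes at 18.2% to 24.3% and 34.2% to 36.2%. Exon lengths from another annotation were not run.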

Other observations

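Of 17 nearest or overlapping RefSeq genes of the 8 AP-1 genes, 7 could be matched to a count and tested, and 2 of the 7 were upregulated DEGs, Iqcn and Gm26802, beside 11.6% of the named genes and 4.53% of all genes tested. Iqcn, which starts 705 bases beyond Jund on chromosome 8 (70701321 to 70717650) in the RefSeq annotation, held 41, 5 and 2 counts at 0 h PCS and 826, 413 and 1041 counts at 6 h PCS. Its log2 fold change was 6.09 (standard error, SE, 1.14, adjusted p = 0.0435, edgeR), and of the 6 fits that left out a library only the one without 0 h replicate 1 called it. Within each time point its highest library was the same as for Jund, 0 h replicate 1 and 6 h replicate 3. The noncoding gene Gm26802, 1903 bases from Fosb, had no count at 0 h PCS and 10, 15 and 17 counts at 6 h PCS, at least 6.44-fold higher with the 0 h libraries set to 3 counts each (adjusted p = 0.0273 in edgeR with all libraries, and no call in any fit that left out one). Fam71a, 5479 bases from Atf3, held 25, 2 and 36 counts at 0 h PCS and 298, 119 and 161 counts at 6 h PCS (log2 fold change 3.71, SE 0.912, adjusted p = 0.0569, edgeR).

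The other neighbours tested were not called. Junos, the noncoding gene 95 bases from Jun that is named as its opposite strand partner, held 20, 11 and 24 counts at 0 h PCS and 14, 20 and 55 counts at 6 h PCS, which overlapped (log2 fold change 1.16, SE 0.735, adjusted p = 0.385, edgeR), beside 2078 to 6603 and 13716 to 24108 counts of Jun. Prdx2, 2098 bases from Junb, differed by −0.30 on the log2 scale (SE 0.188, adjusted p = 0.378, edgeR). Fibp, 4660 bases from Fosl1, differed by 0.46 (SE 0.257, adjusted p = 0.323, edgeR), and Ccdc85b, which overlaps Fosl1, by 0.53 (SE 0.142, adjusted p = 0.0489, edgeR), below the fold limit.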
